A study of Mus musculus with 12 samples.

Results

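Lpl and 7 other genes of lipid uptake, storage and release, Cd36, Fabp4, Fabp5, Plin2, Msr1, Pnpla2 and Lipa, were followed in cultures of primary mouse adult fibroblasts (MAFs). All 8 listed genes were found by symbol among the 10697 genes of the expression table. The members were chosen by name with the measured difference between thymol and DMSO already known, so their differences are given as a description without a test. The cells had been grown out of biopsies of wild-type C57BL6/j mice, and the labels describe no sorting of cell types. In 6 libraries the cells had received 100 µM thymol, a phenolic monoterpene of thyme and oregano, for 24 h, and in the other 6 libraries an equal volume of the solvent DMSO. The labels number the libraries 1 to 6 in each group but do not say that they came from separate cultures or animals, so every p-value measures the spread between these libraries, which may be technical.

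The assay was QuantSeq 3′ mRNA sequencing, in which each polyadenylated transcript is read from its 3′ end only. Long and short transcripts thus weigh alike, so levels were set side by side between genes without division by length. The levels are in log2 CPM (the log2 of CPM, read counts scaled to a common library size). Other differences between genes in how well their 3′ ends are counted were not checked, so an order of genes is an order of counts. The libraries held between 5435985 and 9049796 reads over the genes of the table.

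Lipoprotein lipase, the product of Lpl, is secreted and splits the triacylglycerol of circulating lipoproteins into fatty acids. CD36 and the scavenger receptor MSR1 bring fatty acids and modified lipoproteins into cells, FABP4 and FABP5 carry fatty acids in the cytosol, and perilipin 2 (Plin2) coats the lipid droplets in which the surplus is stored. Adipose triglyceride lipase (Pnpla2) releases fatty acids from droplets, and lysosomal acid lipase (Lipa) hydrolyses cholesteryl esters and triacylglycerol taken up by endocytosis. Macrophages and adipocytes are known for a high use of these genes.

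On GRCm38, with GENCODE vM21 gene models, Lpl spans chr8:68880491-68907448 on the plus strand and Msr1 chr8:39581685-39642673 on the minus strand. Fabp4 (chr3:10204088-10208576, minus strand) and Fabp5 (chr3:10012548-10016607, plus strand) lie on the same chromosome. Cd36 spans chr5:17781690-17888801 and Plin2 chr4:86648386-86670060, both on the minus strand. Pnpla2 lies on the plus strand at chr7:141455198-141460743 and Lipa on the minus strand at chr19:34492318-34527474. Fabp5 has a processed pseudogene copy, Fabp5l2, and the counting could have split or lost reads between them, so the Fabp5 level is uncertain.

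The start regions of 2 members are shown because they hold the core hexamer bound by nuclear receptors such as the PPARs, a family with many target genes in fatty acid handling. The sequences are from RefSeq on GRCm38.p6, 250 bases before to 50 bases after the annotated start, read 5′ to 3′ on the strand of the gene. Capitals mark the hexamer, AGGTCA on the other strand and TGACCT as printed, and in Plin2 also CACGTG, an E-box bound by basic helix-loop-helix factors. Plin2 is chr4:86670010-86670309 and Cd36 is chr5:17835847-17836146, the latter at a start inside the longer gene span.
Plin2: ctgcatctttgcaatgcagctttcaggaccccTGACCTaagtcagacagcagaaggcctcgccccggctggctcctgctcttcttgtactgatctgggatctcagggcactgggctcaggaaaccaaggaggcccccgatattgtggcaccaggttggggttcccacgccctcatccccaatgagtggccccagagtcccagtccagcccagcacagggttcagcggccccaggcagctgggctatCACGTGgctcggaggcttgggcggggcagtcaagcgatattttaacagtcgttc
Cd36: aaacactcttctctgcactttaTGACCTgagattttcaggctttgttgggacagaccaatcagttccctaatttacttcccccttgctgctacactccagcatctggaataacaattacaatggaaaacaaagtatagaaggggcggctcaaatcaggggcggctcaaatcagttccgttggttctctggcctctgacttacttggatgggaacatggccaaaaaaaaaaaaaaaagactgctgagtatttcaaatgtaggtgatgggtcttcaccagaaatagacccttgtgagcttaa
In Plin2 the hexamer begins 218 bases and the E-box 4 bases before the start, and in Cd36 the hexamer begins 228 bases before it. Searched on both strands, AGGTCA was present in 16.3% and CACGTG in 7.15% of 32851 RefSeq start regions of the same length. The GC box GGGCGG was in the regions of Cd36, Plin2, Pnpla2 and Lipa, the 4 members with a region to read, and in 35.7% of all regions. The hexamer and E-box letters were not in the windows of Pnpla2 and Lipa. Lpl, Fabp4, Fabp5 and Msr1 were not analysed here for sequence.

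Lpl was the member that differed most between thymol and DMSO, and it was higher with thymol. Its level in the DMSO libraries ran from 8.19 through a median of 8.34 to 8.52 log2 CPM. With thymol it ran from 9.48 through a median of 9.63 to 9.78 log2 CPM. Every thymol library lay above every DMSO library, with a gap wider than the range within either group. The difference of the mean levels was 1.28 ± 0.057 on the log2 scale (SE, n = 6 each; 95% interval 1.17 to 1.39), a 2.43-fold higher level. In linear terms this was 794 against 327 CPM, resting on a mean of 5229 and 2314 reads per library. No gene of the table had a larger difference towards thymol, and Lpl was chosen with this known.

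Plin2, the droplet coat gene, was lower with thymol. The DMSO libraries held 7.76 at the lowest, 7.93 at the median and 8.02 log2 CPM at the highest. The thymol libraries held 7.38, 7.54 and 7.60 log2 CPM. All 6 thymol values were below all 6 DMSO values. The difference was -0.41 ± 0.060 (SE; 95% interval -0.53 to -0.29), 0.754-fold the DMSO level, at 182 against 242 CPM.

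Among all 10697 genes, limma with Benjamini-Hochberg adjustment placed 2.22% past an adjusted p of 0.05, with 0.654% higher and 1.57% lower with thymol. Of the 8 members, 1 was past it higher (Lpl) and 1 lower (Plin2), a count that the choice of members fixed in part and that is no test of them. In the same 2 members the groups did not overlap, as was the case for 1.68% of all genes. The median difference of all genes was 0.0026. In bulk RNA, more or fewer cells of a type and more or less RNA per cell cannot be told apart, for these genes and for all below.

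**Figure D1:**
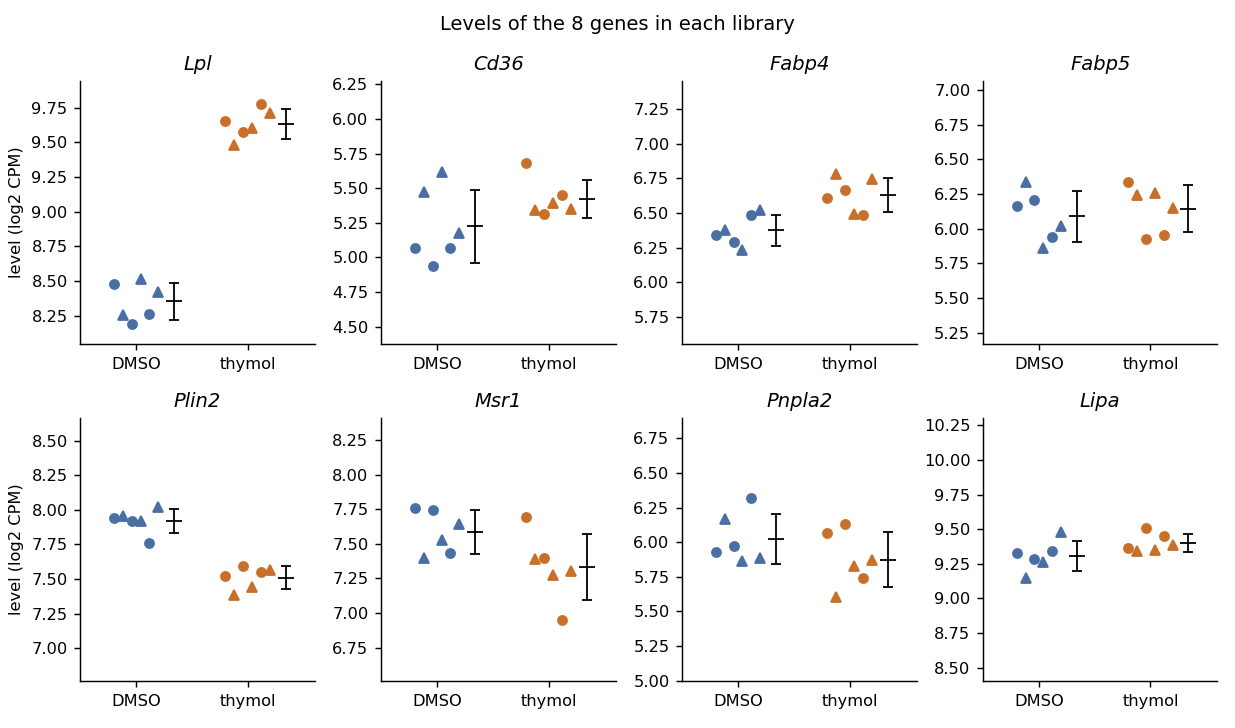
Level of each of the 8 genes in log2 CPM in each of the 6 thymol and 6 DMSO libraries, with circles for odd and triangles for even library numbers and a black bar for the mean ± SD. The thymol and DMSO points are separate for Lpl and Plin2 and overlap for the other 6 genes.

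The fatty acid carriers had smaller differences. Fabp4 ran from 6.23 through 6.36 to 6.52 log2 CPM in DMSO (lowest, median, highest) and from 6.48 through 6.64 to 6.78 log2 CPM in thymol. Of its thymol libraries, 4 of 6 lay above the whole DMSO range. The difference of 0.25 ± 0.078 (SE; 95% interval 0.099 to 0.41) was 1.19-fold. Fabp5, the other carrier, covered the same range in both groups, from 5.86 to 6.34 log2 CPM in DMSO and from 5.93 to 6.34 in thymol. Its difference was 0.056 ± 0.091, with an interval from -0.13 to 0.24.

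The surface receptors lay on opposite sides of 0. Msr1, the class A scavenger receptor, ran from 7.40 through 7.59 to 7.76 log2 CPM in DMSO and from 6.95 through 7.35 to 7.69 in thymol. The lowest 4 of its 6 thymol libraries were below all DMSO libraries, and the highest was inside the DMSO range. The difference was -0.25 ± 0.078 (95% interval -0.41 to -0.093). Msr1 was also the most variable member for its level: its SD within groups of 0.20 was above that of 98.2% of the 1000 genes nearest in level, whose median SD was 0.105. The other 7 members lay between 26.8% (Plin2) and 80.3% (Lpl) on this scale.

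Cd36, the fatty acid translocase, was the lowest of the 8 genes and ran from 4.94 through 5.13 to 5.61 log2 CPM in DMSO and from 5.32 through 5.37 to 5.69 in thymol. Only 1 of 6 thymol libraries, replicate 1, exceeded every DMSO library. The difference of 0.20 ± 0.11 (95% interval -0.029 to 0.43) included 0. In the odd-numbered libraries, 3 in each group, it was 0.46, and in the even-numbered libraries it was -0.062. Within DMSO the Cd36 mean was 5.03 log2 CPM in the odd and 5.42 in the even libraries, against 5.49 and 5.36 with thymol. Between the odd and even DMSO libraries 53 genes passed the limma threshold, and Cd36 differed by -0.40 ± 0.15 (adjusted p = 0.34). The odd minus even difference of the contrast was 0.52 ± 0.21 (limma interaction, adjusted p = 0.99, unadjusted p = 0.018), looked at after the values were seen, and 0 genes passed that test while 531 had an unadjusted p under 0.05. The library names in the labels run through the odd numbers before the even ones in each group, and the labels name no batch, so whether a batch took part was not tested. In the same split, Lpl differed by 1.36 in the odd and 1.20 in the even libraries, and Plin2 by -0.31 and -0.50.

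The lipases of stored and endocytosed lipid had small differences. Pnpla2 ran from 5.86 through 5.95 to 6.32 log2 CPM in DMSO and from 5.61 through 5.85 to 6.13 in thymol, a difference of -0.15 ± 0.096 (95% interval -0.34 to 0.042). Lipa ran from 9.15 through 9.31 to 9.48 log2 CPM in DMSO and from 9.34 through 9.37 to 9.51 in thymol, a difference of 0.091 ± 0.051 (95% interval -0.012 to 0.19). Both groups overlapped for both genes, and the intervals leave room for differences of either sign.

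**Figure D2:**
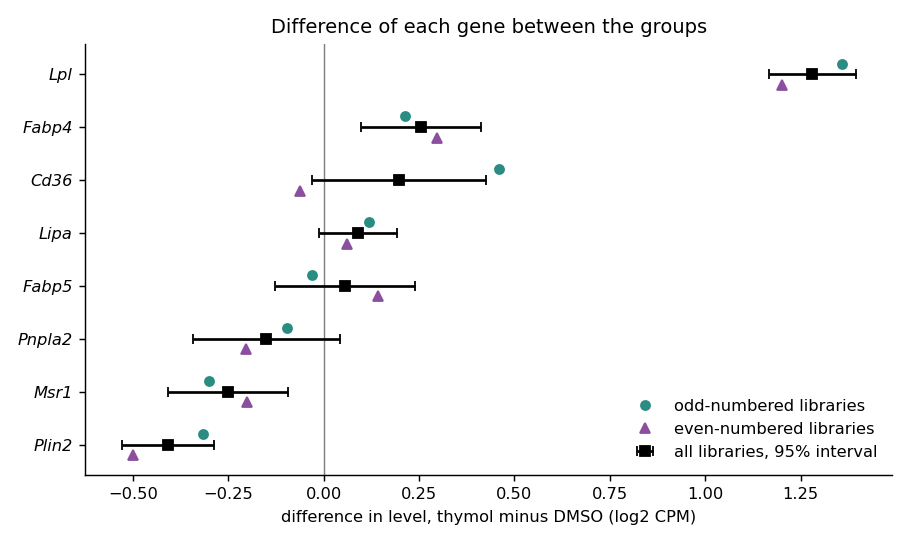
Thymol minus DMSO difference of the mean log2 level for each of the 8 genes, with the 95% interval of the limma fit over 12 libraries. Lpl stands at 1.28 and Plin2 at -0.41, and the intervals of Cd36, Fabp5, Pnpla2 and Lipa include 0.

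The members covered a wide range of abundance. In DMSO the order of mean levels was Lipa, Lpl, Plin2, Msr1, Fabp4, Fabp5, Pnpla2 and Cd36. Lipa, at 9.31 ± 0.11 log2 CPM (SD, n = 6), was above 98.4% of the genes in the table and Cd36, at 5.22 ± 0.26, above 54.1%. Each neighbour stood above the next in 6 of 6 DMSO libraries, except Fabp5 and Pnpla2, which were 0.065 apart on the log2 scale and kept the order in 4 of 6. With thymol, Lpl at 9.63 ± 0.11 stood above Lipa at 9.40 ± 0.066 in 6 of 6 libraries, so the gene with the highest counted level of the 8 changed from Lipa to Lpl. Plin2 and Msr1, 0.33 apart in DMSO, were 0.18 apart with thymol and kept their order in 4 of 6 libraries. The order of Fabp5 over Pnpla2 held in 5 of 6.

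**Figure D3:**
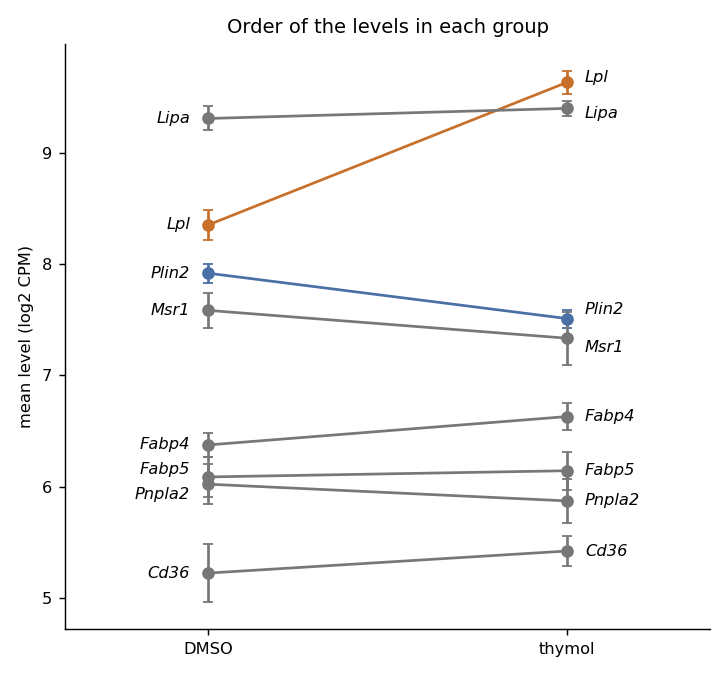
Level of the 8 genes in log2 CPM in DMSO and in thymol, joined by gene, as means with SD bars over 6 libraries per group. Lpl lies below Lipa in DMSO, at 8.35, and above it with thymol, at 9.63, and Plin2 lies within 0.18 of Msr1 with thymol.

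Genes whose library-to-library pattern was most like that of Lpl were ranked by Pearson r over 12 libraries after the mean of each group had been taken out, among 5393 other genes with a mean of at least 5 log2 CPM. The 3 highest were Ubtf (r = 0.897), a factor of ribosomal RNA transcription, Tspan4 (r = 0.885), a tetraspanin, and S1pr2 (r = 0.869), a receptor of sphingosine 1-phosphate. All points come from the same 12 libraries and share their scaling, and the highest of so many values is high by selection. Their own differences between thymol and DMSO were 0.057, 0.20 and 0.20, against 1.28 for Lpl. The other members ranged on the same measure from -0.44 (Fabp5) to 0.47 (Plin2).

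The pathways around the members were read from 8 lists, written by hand with earlier results of these data known. The counts per list are thus a description and no test of the pathways. Of the 153 genes of the lists, 109 were in the table. Of these 109 genes, 1 passed the limma threshold higher and 6 lower with thymol, against 0.654% and 1.57% of all genes, and 25 had an unadjusted p under 0.05, which 11.8% of all genes in the table had. The median difference over the 109 was -0.069, with 44 above 0 and 65 below. These counts moved with single libraries: 4 genes passed in all without thymol replicate 2, 3 or 6, and 3 without DMSO replicate 6.

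Of the partners and regulators of LPL, 0 of 14 measured genes passed the threshold by limma, with 4 above 0 and 10 below, a median of -0.14 and 4 genes at an unadjusted p under 0.05, against 11.8% of all genes. Lmf1, which matures the lipase in the endoplasmic reticulum, differed by -0.14 (adjusted p = 0.78). Angptl4, a secreted inhibitor of LPL, differed by -0.44 ± 0.18 (adjusted p = 0.25). The other genes at an unadjusted p under 0.05 were Sdc4 (-0.27, adjusted p = 0.059), Pdia4 (-0.22, adjusted p = 0.27) and Sdc1 (-0.26, adjusted p = 0.36). For Sdc4, 4 of 6 thymol libraries lay below all DMSO libraries and 1 lay above them. The receptors Lrp1 and Vldlr, which take up lipoprotein remnants, differed by 0.020 (adjusted p = 0.94) and -0.019 (adjusted p = 0.99). Gpihbp1, the endothelial anchor of LPL, and Apoc2, its cofactor, were not among the genes of the table.

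Of the other scavenger receptors, 0 of 11 passed by limma, and the median difference was -0.0090. An unadjusted p under 0.05 was reached by 3 of them, against 11.8% of all genes. These were Cd68, which was higher with thymol, and Stab1 and Mrc1, which were lower. Stab1 differed by -0.23 (limma, adjusted p = 0.075) and Mrc1 by -0.20 (adjusted p = 0.16). Scarb1, the HDL receptor, differed by 0.028 (adjusted p = 0.96), and Olr1, a receptor of oxidised LDL, by -0.37 (adjusted p = 0.76) on few reads. The Olr1 difference was -0.62 when thymol replicate 2 was left out and -0.14 when thymol replicate 5 was. Cd68, a lysosomal glycoprotein of macrophages, differed by 0.18 ± 0.054 (adjusted p = 0.055), with 5 of 6 thymol libraries above all DMSO libraries. Its call depended on the settings: it passed in 9 of 25 alternatives, with adjusted p-values over all of them from 0.015 (replicate block) to 0.69 (odd-numbered libraries alone). It passed among these when thymol replicate 4 or DMSO replicate 1 was left out, at 0.19 (adjusted p = 0.049) and 0.20 (adjusted p = 0.037).

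Of 15 measured genes of fatty acid transport, binding and activation, 3 passed the limma threshold lower with thymol, against 1.57% of all genes. In all, 4 had an unadjusted p under 0.05, against 11.8% of all genes, and the median was -0.11. Dbi, the acyl-CoA binding protein, ran from 9.07 to 9.26 log2 CPM in DMSO and from 8.87 to 8.97 in thymol without overlap, and fell by 0.24 ± 0.049 (limma, adjusted p = 0.0016). Acsl4 and Acsl3, which join coenzyme A to long fatty acids, differed by -0.28 ± 0.074 (adjusted p = 0.027) and -0.38 ± 0.11 (adjusted p = 0.05 after rounding up from just under the threshold). Acsl3 passed only when thymol replicate 3, DMSO replicate 3 or DMSO replicate 5 was the library left out, and ranged from -0.39 to -0.34 in the 9 of 12 fits in which it did not. Acsl4 did not pass without thymol replicate 3 (-0.27) or 4 (-0.23) or without DMSO replicate 2 (-0.26), 5 (-0.27) or 6 (-0.25). Fabp3, the heart form of the binding proteins, differed by -0.27 (adjusted p = 0.66) and Acsl1 by -0.091 (adjusted p = 0.88).

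Around the droplet, Hilpda fell beside Plin2. Hilpda, a small droplet protein that inhibits adipose triglyceride lipase, ran from 6.09 through 6.20 to 6.35 log2 CPM in DMSO and from 5.48 through 5.62 to 5.90 in thymol. No thymol value reached the DMSO range, and the difference was -0.54 ± 0.090 (limma, adjusted p = 6.1e-05). Of 9 measured droplet coat and assembly genes, 1 passed lower, Hilpda, against 1.57% of all genes. The list had a median of -0.087 and 2 genes at an unadjusted p under 0.05, against 11.8% of all genes. Plin3, another perilipin, differed by 0.10 (adjusted p = 0.66), and G0s2, another inhibitor of the lipase, was not among the genes of the table.

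Synthesis and breakdown of neutral lipid had 0 of 13 and 0 of 14 measured genes past the limma threshold, with medians of -0.0075 and 0.053. They had 1 and 2 genes at an unadjusted p under 0.05, against 11.8% of all genes. Dgat1 and Dgat2, which complete triacylglycerol, differed by -0.14 (adjusted p = 0.71) and -0.35 (adjusted p = 0.69). Soat1, which esterifies cholesterol, differed by 0.18 (adjusted p = 0.15). Among the breakdown genes, Abhd5, the activator of adipose triglyceride lipase, differed by 0.13 (adjusted p = 0.72), Lipe by -0.35 (adjusted p = 0.54) and Mgll, which ends the hydrolysis, by 0.23 (adjusted p = 0.33). Nceh1, a cholesteryl ester hydrolase, and Npc2, which moves cholesterol out of lysosomes, differed by 0.067 (adjusted p = 0.80) and 0.044 (adjusted p = 0.82).

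Of 11 measured genes in the list of PPAR and RXR factors and coregulators, 0 passed by limma, with a median of 0.024. Of these, 3 had an unadjusted p under 0.05, against 11.8% of all genes. They were Rxrb (0.22, adjusted p = 0.41) and the C/EBP genes Cebpa (0.28, adjusted p = 0.13) and Cebpb (-0.22, adjusted p = 0.2). The list held Cebpa and Cebpb although they are outside the PPAR and RXR families. Pparg was not among the genes of the table. The list of mitochondrial fatty acid oxidation also held Acot2, Ucp2 and Pdk4, which are not enzymes of the oxidation itself. Of its 22 measured genes, 1 passed higher and 2 lower, against 0.654% and 1.57% of all genes, with a median of -0.11. An unadjusted p under 0.05 was reached by 6 of the 22, against 11.8% of all genes. Cpt1a, which admits fatty acids to mitochondria, ran from 5.96 to 6.31 log2 CPM in DMSO and from 5.50 to 5.91 in thymol without overlap, and fell by 0.36 ± 0.093 (adjusted p = 0.018). Ucp2, a carrier of the inner mitochondrial membrane, fell by 0.27 ± 0.069 (adjusted p = 0.018). Acot2, a mitochondrial acyl-CoA thioesterase, rose by 0.34 ± 0.096 (adjusted p = 0.041). Cpt1a did not pass without thymol replicate 5 (-0.33) or 6 (-0.32) or DMSO replicate 5 (-0.34) or 6 (-0.32), and Ucp2 not without thymol replicate 2 (-0.23) or 3 (-0.25) or DMSO replicate 1 (-0.23) or 3 (-0.25). Acot2 passed only without thymol replicate 5 or DMSO replicate 1, 2 or 5, and was 0.25 without DMSO replicate 6.

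**Figure D4:**
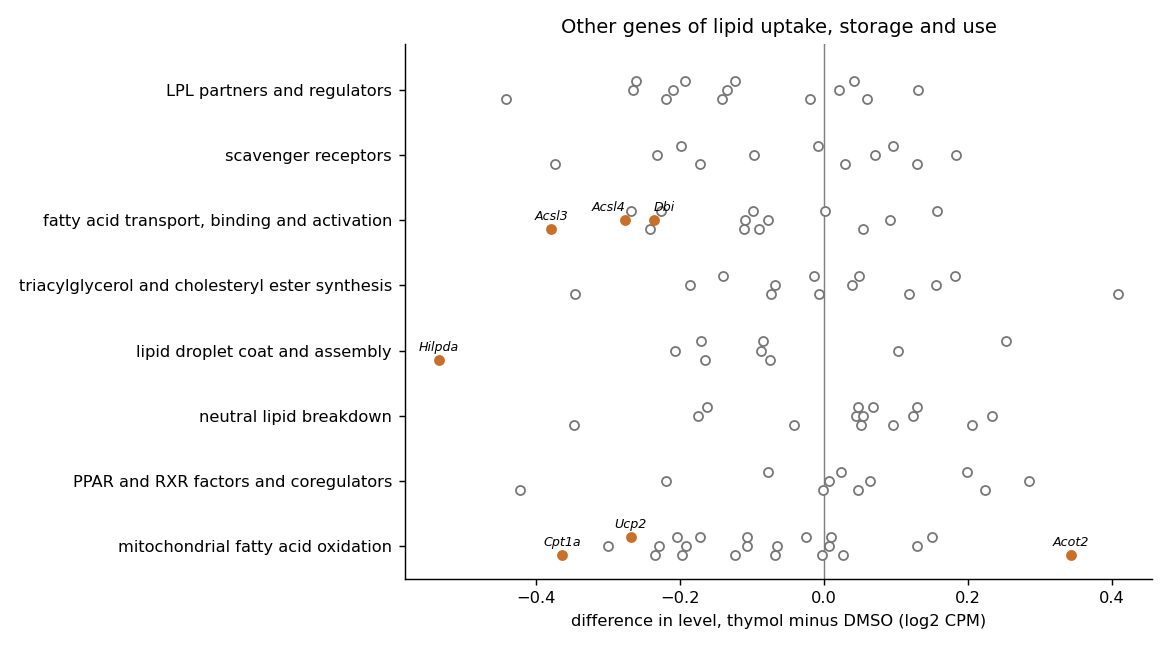
Thymol minus DMSO difference of the mean log2 level for each measured gene of the 8 pathway lists, 1 row per list, with genes past the limma threshold named. The named genes are Hilpda, Dbi, Acsl4, Acsl3, Cpt1a and Ucp2 to the left of 0 and Acot2 to the right.

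The cultures held transcripts that mark macrophages as well as those that mark fibroblasts. All 20 macrophage markers and 13 of 15 fibroblast markers were in the table, and of 13 adipocyte markers only Lipe, which differed by -0.35 (exact two-sided permutation test, p = 0.0887). The mean macrophage marker level was 8.39 ± 0.036 log2 CPM in thymol and 8.38 ± 0.033 in DMSO (exact two-sided permutation test, p = 0.799), and the summed markers ranged from 20773 to 24553 CPM in thymol and from 20513 to 22468 in DMSO. Within this list of 20 genes, 2 passed the limma threshold higher and 2 lower, against 0.654% and 1.57% of all genes. The mean thus held markers that moved in both directions. Measured against the macrophage mean of the same library, Lpl stood between 1.14 and 1.36 in thymol and between -0.20 and 0.13 in DMSO, and Plin2 between -0.96 and -0.79 and between -0.56 and -0.37. The macrophage mean differed by 0.0054 between the groups, so taking it out could hardly change the differences of Lpl and Plin2, which stayed at 1.28 and -0.41. Whether the share of macrophages had a part in them was not tested.

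The mean fibroblast marker level was lower with thymol, at 7.74 ± 0.043 against 7.84 ± 0.053 log2 CPM, a difference of -0.11 (exact two-sided permutation test, p = 0.00866), with summed markers of 8585 to 9309 against 9557 to 10542 CPM. Of the 13 measured fibroblast markers, 0 passed the limma threshold higher and 2 lower, against 0.654% and 1.57% of all genes. The difference of the fibroblast mean moved beside those of the members, and its part in them was not tested. Relative to the fibroblast mean, Lpl ranged from 1.79 to 1.98 in thymol and from 0.39 to 0.71 in DMSO, while Plin2 ranged from -0.30 to -0.094 and from -0.10 to 0.17, a difference of -0.30, and the 2 ranges met by a small margin. Few markers of other cell types were in the table: 2 of 11 endothelial (p = 0.987), 2 of 11 skeletal muscle, 2 of 8 keratinocyte (p = 0.136) and 5 of 8 smooth muscle and pericyte markers (p = 0.11), by the same exact permutation test of their means. The skeletal muscle mean, of Acta1 and Des, was lower by 0.45 with thymol (exact permutation p = 0.0433). The library means overlapped, from 4.14 to 5.21 log2 CPM in thymol and from 4.75 to 5.31 in DMSO. The summed levels did not, at 93.2 to 125 against 133 to 160.0 CPM. Des was also in the smooth muscle and pericyte list. The p-values of the marker lists were not adjusted for the number of lists. The listed markers of adipocytes other than Lipe were not among the genes of the table.

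**Figure D5:**
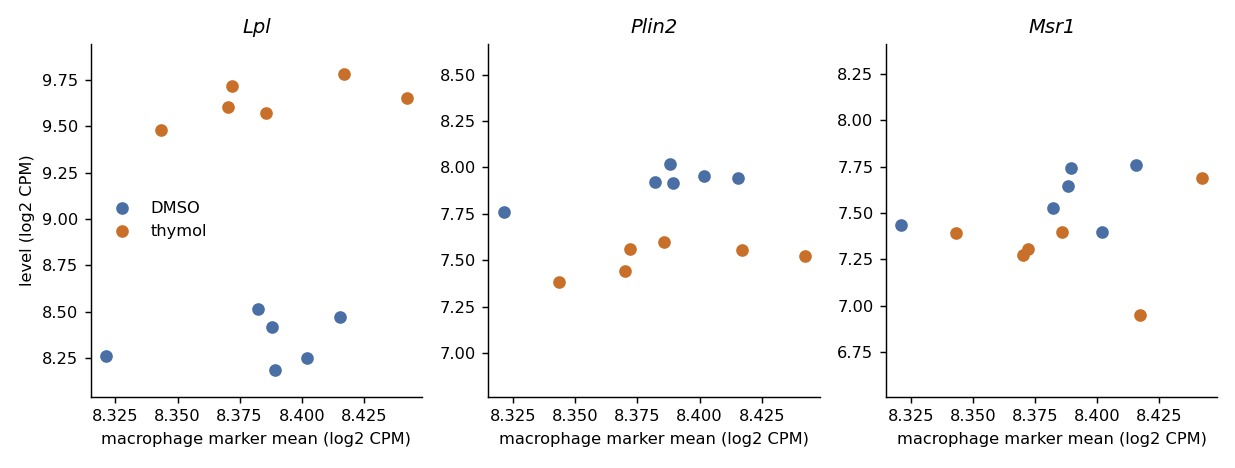
Level of Lpl, Plin2 and Msr1 against the mean level of the 20 macrophage markers in the same library, both in log2 CPM, with 1 point per library. The marker means of both groups overlap on the horizontal axis, while thymol and DMSO points are apart on the vertical axis for Lpl and Plin2 and mixed for Msr1.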

How the data were processed

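The authors aligned QuantSeq reads to GRCm38 with STAR 2.5.3, counted reads per gene with HTSeq 0.6.1, dropped genes without annotation and genes with fewer than 30 reads in 6 samples, and scaled the libraries by trimmed means of M-values. The deposited values are log2 CPM, normalized by the authors with a prior count of 1.96 reads in an average library. The prior was recovered from the values, as were whole reads, with 100% of the values under 200 reads within 0.02 of a whole number, and it shrinks differences of genes with few reads. The study tested counts, but the main fit here used the log2 values. Its test was limma 3.58.1 in R 4.3.3 (lmFit, eBayes with a mean-variance trend, 6 against 6 libraries, no covariate), with Benjamini-Hochberg adjustment over 10697 genes. Recovered reads entered the fits only through voom, among the alternatives. Procedures were tested on simulated data.

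The members and lists were chosen with earlier results of these data known. Named were the 8 members, 24 fixed pathway genes, of which 20 were in the table, up to 4 genes past the threshold from each list, and the 3 genes most like Lpl in their pattern. Stab1, Mrc1, Sdc4, Sdc1, Pdia4, Cebpa, Cebpb and Rxrb were also named, as list genes at an unadjusted p under 0.05. Pdk4 was named only to describe its list. Marker means were compared by exact permutation, two-sided, with 924 relabellings and a smallest p of 0.00216. Groups followed the treatment label. The labels do not say whether same-numbered libraries were pairs, and the main fit used no pairing. Deviations of same-numbered libraries correlated from -0.051 to 0.27, and 2 of 6 numbers matched best with themselves. These values cannot show whether pairs existed, so the replicate block was run as an alternative. Alternatives covered scaling, filters, added CPM, library weights, voom, the replicate block and each library left out. Read counts cover counting error only.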

Additional observations from a re-analysis of the deposited data

Results flagged for a closer look

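In 70 groups of 6 libraries examined, 5 had 1 library set apart from the rest by Dixon's criterion, where chance gives 1 in 20, or 3.5. For Cd36, thymol replicate 1 was at 5.69 log2 CPM and the other thymol libraries between 5.32 and 5.45, and without it the Cd36 difference was 0.15. For Acot2, thymol replicate 1 was at 6.41 and the others between 6.06 and 6.15. For Acsl1, thymol replicate 4 was at 4.12 and the others between 4.73 and 5.04. For Vldlr, DMSO replicate 6 was at 4.13 and the others between 4.41 and 4.53. The mean macrophage marker level of DMSO replicate 5 was 8.32, below the 8.38 to 8.42 of the other DMSO libraries.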

How the results depend on the processing

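The number of genes past the threshold was 238, 57 without the mean-variance trend and 70 in the odd-numbered libraries alone, and 172 to 270 with a library left out. It was 332 with the replicate block and 277 when the fit held a term for odd or even numbers. The pathway genes past it numbered 7, 1 without the trend, 11 with the replicate block, 2 in the odd and 3 in the even libraries, and 3 to 8 with a library left out. The members past it numbered 2, 4 with library quality weights, 4 with the replicate block, 1 in the odd libraries, and 2 to 3 with a library left out. The difference of Cd36 was 0.46 in the odd and -0.062 in the even libraries, that of Fabp5 -0.031 and 0.14, and that of Plin2 -0.31 and -0.50. The fibroblast marker difference was -0.055 in the odd (exact permutation p = 0.4) and -0.16 in the even libraries (p = 0.1, the smallest that 3 against 3 allow), and -0.11 with the replicate block (p = 0.0625). With a library left out, Lpl ranged from 1.25 to 1.31, Plin2 from -0.44 to -0.38, Cd36 from 0.14 to 0.28, Fabp4 from 0.22 to 0.28, Fabp5 from 0.0096 to 0.11, Pnpla2 from -0.20 to -0.091, Lipa from 0.059 to 0.12, Msr1 from -0.32 to -0.17 and the fibroblast markers from -0.12 to -0.093. Cd68 passed under robust moderation, 10 CPM more added, a mean of at least 5, quantile normalization, the replicate block, the odd or even term and voom (limma adjusted p from 0.015 to 0.048). Hilpda passed the threshold in all 25 alternatives run on it. Acot2 did not pass under median centring, quantile normalization, library weights or voom, nor Acsl3 under robust moderation, library weights, voom or 10 CPM more added, and Acot2, Cpt1a, Dbi, Acsl4, Acsl3 and Ucp2 did not pass without the trend or in 1 or both of the odd and even subsets. The cause of these changes was not tested. The interaction of thymol with odd or even numbers and the comparison within DMSO were chosen after seeing the data. Depth limits Olr1, with 25.8 to 35 mean reads per group, and the prior shrinks its difference.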
